A study of Mus musculus with 5 samples.

Results

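Stromal progenitor nuclei of epididymal fat that lack the Dpp4-type genes were taken from single-nucleus RNA sequencing of mouse white adipose tissue. A nucleus was a member if it had at least 200 genes, at most 10% mitochondrial unique molecular identifiers (UMIs, 1 per captured transcript) and at least 5 UMIs, from at least 3 genes, over Pdgfra, Lama2, Bicc1, Abca8a, Col6a3, Scara5 and Fbn1. It could hold at most 1 UMI over 8 genes of other cell types (Acvr1c, Flt1, Ptprb, Mrc1, Upk1b, Bank1, Skap1 and Myh11). It could also hold at most 1 UMI over 6 Dpp4-type genes (Dpp4, Pi16, Sema3c, Sema3e, Cd55 and Anxa3). In the epididymal library 488 of 18514 nuclei met the rule, out of 76040 nuclei in the whole series. The nuclei were thus chosen by their own UMI counts of these 21 genes, whose levels are descriptions only.

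The study compared 5 white fat depots of 10-week-old male wild-type mice on chow diet: epididymal (EWAT), perirenal (NWAT), subcutaneous (SWAT), peri-heart (HWAT) and mesenteric (MWAT). The protocol names C57BL/6J for every mouse, and the strain field has this name for EWAT and SWAT, but HWAT is listed there as C57BL/9J, NWAT as C57BL/8J and MWAT as C57BL/7J. Blood was washed out with a heparin solution before collection, and nearby lymph nodes were cut away from SWAT and MWAT only. Fat of 6 mice was pooled for each of SWAT, EWAT and NWAT, of 10 mice for MWAT and of 20 mice for HWAT, and each pool gave 1 library. No depot was replicated, so depot, pool and library cannot be told apart, no difference has a test, and every interval is a 95% interval of counting error alone. The same rule found 774 nuclei in SWAT, 548 in MWAT, 378 in NWAT and 152 in HWAT, and these serve as the comparison.

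Fibro-adipogenic progenitors are Pdgfra-expressing stromal cells that lie around vessels and between fat cells. They make collagen and other matrix, and they can become adipocytes. In fat, a Dpp4- and Pi16-expressing type lies in the connective sheets and is held to be the less committed one. Cells outside it include preadipocytes that already express adipocyte genes, and a F3-expressing (CD142) type known for restraining adipocyte formation.

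Pdgfra, the defining receptor of these progenitors, is a gene of the rule, so its level describes the selection and does not check the label. It was at 1177 CPM in EWAT (1110.0 to 1248), 1641 in SWAT, 2187 in MWAT, 898 in NWAT and 684 in HWAT. In EWAT endothelial, macrophage and adipocyte nuclei it was at 1.1, 1.09 and 1.57 CPM. Those nuclei were chosen with at most 1 UMI over marker genes of other types, Pdgfra among them, so their low values follow too. CPM is the UMI count of a gene, summed over the nuclei of a group and scaled to counts per 1000000 UMIs of that group. The EWAT members summed to 964775 UMIs, with a median of 1853.5 UMIs and 1185 genes a nucleus. Median depth was 1837 UMIs in SWAT, 1195.5 in MWAT, 2309.5 in NWAT and 1721.5 in HWAT. Between 40 and 87 barcodes were shared by each pair of libraries, and 0 of them were members in both.

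RNA of other cell types was present. In EWAT members the 12 adipocyte markers summed to 2348 CPM, 18.1% of their level in the whole library, and the 8 macrophage markers to 565 CPM, or 31.5%. The 8 mesothelial markers summed to 142 CPM with Bnc1 at 0, and the 9 endothelial markers to 267 CPM. Of 7 lymphoid markers, 5 (Ms4a1, Cd79a, Pax5, Themis and Jchain) were at 0, which allows up to 3.11 CPM each. The 6 glial markers summed to 534 CPM, above the 230 CPM of the whole library, with the defining gene Sox10 at 0. The other libraries were less even. MWAT members carried 985 CPM of 6 gut interstitial markers against 93.4 to 197 elsewhere, and 1180 CPM of 8 pericyte and smooth muscle markers against 69.1 to 204 elsewhere. HWAT members carried 1991 CPM of macrophage, 1068 of mesothelial and 760 of lymphoid markers. The part of these cells in the depot differences was not tested, and values are given without MWAT where a count depends on it.

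Members made up 2.64% of EWAT nuclei (2.41 to 2.88). SWAT had the highest share, 6.29% (5.87 to 6.73), and HWAT the lowest, 1.21% (1.03 to 1.42). NWAT had 2.96% (2.67 to 3.27) and MWAT 2.77% (2.55 to 3.01). EWAT thus stood at 0.419 times SWAT (0.373 to 0.470) and 2.17 times HWAT (1.81 to 2.62). Its ratios to MWAT (0.951, 0.840 to 1.08) and NWAT (0.891, 0.778 to 1.02) had intervals that span 1. Among the 957 stromal nuclei of EWAT, 51.0% (47.8 to 54.2) were outside the Dpp4 type, beside 78.1% in SWAT, 63.6% in MWAT, 48.0% in NWAT and 45.2% in HWAT. A nucleus with more UMIs reaches both the stromal minimum and the Dpp4 limit more easily. The rule was also applied after thinning each nucleus to 1000 UMIs, which left out nuclei with fewer. This kept 16139 of 18514 nuclei in EWAT and 13851 of 19768 in MWAT. Among the nuclei kept, the shares were 2.81% in EWAT, 5.08% in SWAT, 2.40% in MWAT, 3.15% in NWAT and 0.799% in HWAT. SWAT remained highest and HWAT lowest, and EWAT moved from below to above MWAT. The part of the left-out nuclei in that move was not tested.

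**Figure D1:**
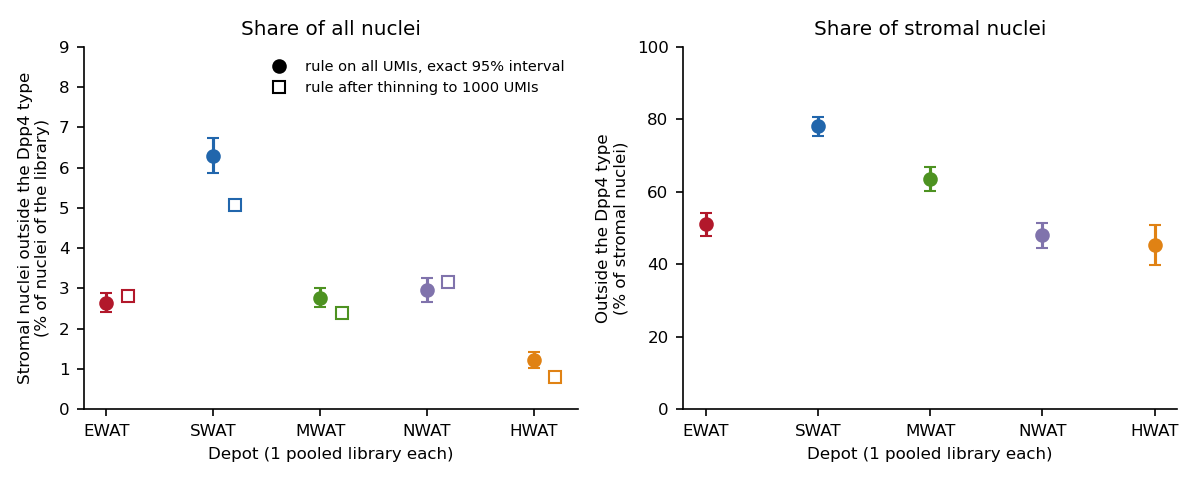
Stromal nuclei outside the Dpp4 type as a percentage of all nuclei of each library (left) and of its stromal nuclei (right), with exact 95% binomial intervals. Open squares give the shares after thinning each nucleus to 1000 UMIs, with nuclei under 1000 UMIs left out. Of all nuclei, EWAT lies near MWAT and NWAT, below SWAT and above HWAT; of stromal nuclei it lies below SWAT and MWAT.

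The values on either side of each limit were as follows. The 34 EWAT nuclei with exactly 5 stromal UMIs had 655 CPM of Sult1e1 and 475 CPM of the adipocyte gene Adipoq, and the 34 nuclei with 4 stromal UMIs, just outside, had 182 and 667 CPM. No gap marked the Dpp4 limit. Amph was at 215 CPM in the 312 nuclei with 0 UMIs of the Dpp4-type genes, 110.1 CPM in the 176 with 1, 79.5 CPM in the 98 with 2 and 59.9 CPM in the 371 with 3 or more. Chrm3 (870, 751, 540 and 245 CPM) and Sult1e1 (1258, 1146, 988 and 497 CPM) followed the same order. Cadps (193, 130, 159 and 105 CPM) and Col6a6 (247, 150, 218 and 130 CPM) did not, both being higher with 2 UMIs than with 1, with Dpp4-type nuclei being deeper (median 2243 UMIs).

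Besides Pdgfra, the genes that marked these nuclei in earlier work on the same data were Amph, Cadps, Col6a6, Sult1e1 and Chrm3. Amph encodes amphiphysin, a protein of endocytosis at synapses, and Cadps a priming factor for dense-core vesicles. Col6a6 encodes a chain of collagen VI, Sult1e1 the sulfotransferase that inactivates oestrogens, and Chrm3 a muscarinic acetylcholine receptor. They were chosen for their pattern, so their levels are given with no more weight than a description.

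Sult1e1 was at 1217 CPM in EWAT (1148 to 1289), 66.6 in SWAT, 54.3 in MWAT, 88.5 in NWAT and 722 in HWAT. It was high in EWAT and HWAT and below 100 CPM in the other 3 depots. Chrm3 was at 826 CPM in EWAT (769.7 to 886), 201 in SWAT, 511 in MWAT, 217 in NWAT and 121 in HWAT, with MWAT next to EWAT. A Sult1e1 UMI was found in 56.4% of EWAT members, 30.3% in HWAT and between 4.01% and 5.81% in SWAT, MWAT and NWAT. In EWAT nuclei that should lack it the share was 1.33% (endothelial, median 1395.5 UMIs), 1.63% (macrophage, 1729.5) and 1.55% (adipocyte, 2409). Chrm3 was found in 53.5% of members and, as background, in 1.31% of adipocyte and 0.61% of macrophage nuclei. EWAT endothelial nuclei had it at 12.5%, above that background.

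The 5 genes were carried by overlapping sets of nuclei, and most nuclei showed only some of them. After thinning to 1000 UMIs, 434 EWAT members remained. Of these, 26.7% (22.6 to 31.2) had a UMI of none of the 5 genes, 31.1% of 1, 28.3% of 2, 11.1% of 3, 2.76% of 4 and 0 of all 5, where the exact interval reaches 0.846%. A pair or more was found in 42.2% (37.5 to 47.0) of EWAT members, and in 0.283% (0.0343 to 1.02) of SWAT, 2.44% (1.12 to 4.58) of MWAT, 4.47% (2.58 to 7.16) of NWAT and 5.30% (2.16 to 10.6) of HWAT members. The EWAT Dpp4 type was between them at 17.8% (14.4 to 21.6), and 0 of 4983 adipocyte nuclei held a pair. Without thinning, 180 of the 261 Chrm3-positive members (69.0%) also had Sult1e1, beside 56.4% of all members. Of the 117 Amph-positive members, 35.0% had Cadps and 70.9% Sult1e1, and deeper nuclei are more likely to show any pair.

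**Figure D2:**
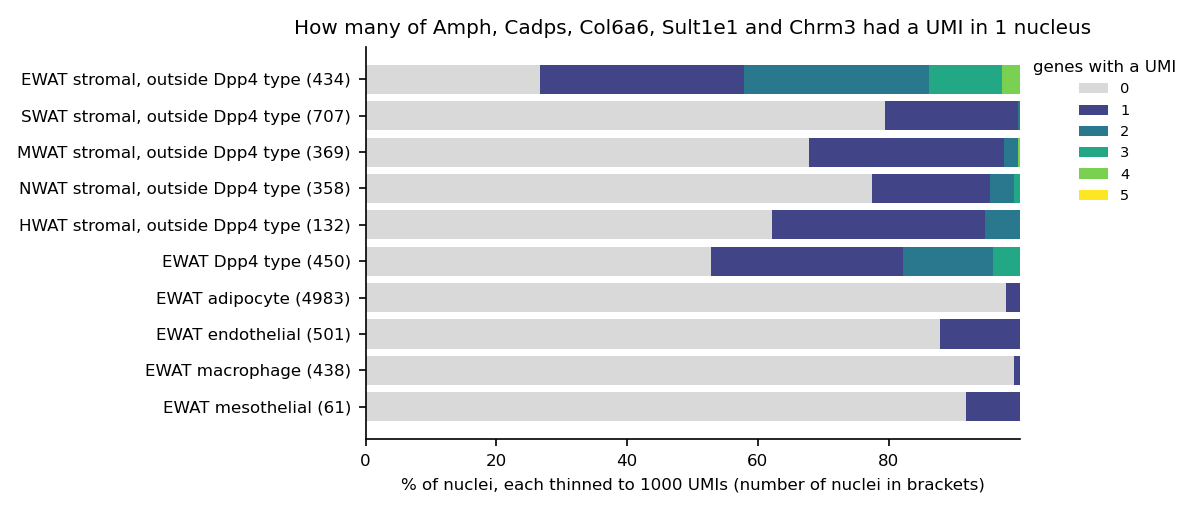
Share of nuclei in which 0 to 5 of Amph, Cadps, Col6a6, Sult1e1 and Chrm3 had a UMI, after thinning each nucleus to 1000 UMIs, with the number of nuclei in brackets. Nuclei under 1000 UMIs were left out. EWAT stromal nuclei outside the Dpp4 type show a pair or more in 42.2% of nuclei, and SWAT, MWAT, NWAT and HWAT stromal nuclei do so in 0.283% to 5.30%.

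The next comparison asked which genes set the epididymal nuclei apart from the same nuclei of all 4 other depots. Of 7383 genes with at least 100 UMIs over the 5 groups, 22 (0.298%) were at least 2-fold higher in EWAT than in every other depot with counting intervals above 1. Another 32 (0.433%) were at least 2-fold lower than in every other depot, with intervals below 1. Without MWAT the counts were 43 and 49, and after thinning they were 14 and 15. The lower count was also 16 when members could hold 0 UMIs of the Dpp4-type genes, and 21 after removal of likely doublets. Of the 22 higher genes, 12 with at least 100 UMIs in EWAT members are described first. Agt, Npr3, Nr2f1, Sox9, Trpm3 and Vwa1 were also among the 22, with fewer than 100 UMIs in EWAT members.

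Rtl4, a retrotransposon-derived gene on the X chromosome, had the highest ratio of the 12. It had 184 UMIs in EWAT, 1 in SWAT, 2 in MWAT and 0 in NWAT and HWAT, or 191 CPM in EWAT, 0.64 in SWAT and 2.79 in MWAT. Its ratio to MWAT was 68.5 (18.7 to 569.6), which rests on 2 UMIs. The ratio to the next depot was 123 after removal of likely doublets and 298 without MWAT. A Rtl4 UMI was found in 66 of the 488 EWAT members (13.5%), in 31 of 469 EWAT Dpp4-type nuclei (6.61%) and in 0.224% of EWAT adipocyte nuclei. The gene lies at chromosome X, 144688907 to 145122411 on the plus strand (GRCm38).

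Cadps and Amph had the next ratios among the 12. Cadps was at 170.0 CPM in EWAT (145 to 198), 0.64 in SWAT, 2.79 in MWAT, 19.4 in NWAT and 0 in HWAT, where the count of 0 in HWAT allows up to 10.4 CPM. EWAT was 8.75 times NWAT (5.37 to 15.1) for Cadps. The ratio to the next depot was 7.50 with 0 UMIs of other types allowed and 14.4 after thinning. Amph was at 176 CPM in EWAT (151 to 205), 8.96 in SWAT, 5.57 in MWAT, 44.3 in NWAT and 17.3 in HWAT, and EWAT was 3.98 times NWAT (2.82 to 5.75). For both genes NWAT held the second place. Amph had a UMI in 24.0% of EWAT members and Cadps in 21.1%, while in EWAT adipocyte nuclei the shares were 0.168% and 1.23%. Amph lies at chromosome 13, 18948205 to 19150921 on the plus strand and Cadps at chromosome 14, 12372563 to 12823079 on the minus strand.

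The collagen VI genes Col6a5 and Col6a6 are neighbours on chromosome 9 (Col6a6 at 105687809 to 105828160, Col6a5 at 105856078 to 105960643, both on the minus strand). Col6a5 was at 272 CPM in EWAT (239.7 to 307), 0.64 in SWAT, 13.9 in MWAT, 66.9 in NWAT and 79.5 in HWAT, and EWAT was 3.42 times HWAT (2.23 to 5.48). Col6a6 was at 211 CPM in EWAT (183 to 243), 9.6 in SWAT, 27.9 in MWAT, 54.0 in NWAT and 79.5 in HWAT, and EWAT was 2.66 times HWAT (1.72 to 4.29). With a minimum of 8 stromal UMIs the Col6a6 ratio was 1.44, under 2-fold. Both genes followed the same order of depots, with HWAT second, then NWAT and MWAT, and SWAT lowest. Both were also present in EWAT mesothelial nuclei, at 284 and 109 CPM, and the part of mesothelial RNA in the members (142 CPM over the 8 markers, Bnc1 at 0) was not tested.

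Ace and Agt belong to the renin-angiotensin system, as the converting enzyme and the angiotensin precursor. Ace was at 145 CPM in EWAT (122 to 171), 44.2 in SWAT, 30.6 in MWAT, 44.3 in NWAT and 31.1 in HWAT, and EWAT was 3.28 times NWAT (2.3 to 4.77). The 4 other depots had overlapping intervals. Agt, with 75 UMIs in EWAT, was at 77.7 CPM in EWAT (61.1 to 97.4), 7.68 in SWAT, 15.3 in MWAT, 24.8 in NWAT and 10.4 in HWAT, and EWAT was 3.13 times NWAT (1.94 to 5.24). EWAT adipocyte nuclei held 125 CPM of Agt, above the members. Dpyd, the first enzyme of pyrimidine breakdown, was at 443 CPM in EWAT (402 to 487), 135 in SWAT, 156 in MWAT, 209 in NWAT and 162 in HWAT, and EWAT was 2.11 times NWAT (1.78 to 2.52), or 1.70 with a minimum of 8 stromal UMIs. EWAT adipocyte nuclei held 602 CPM of Dpyd, and the part of free adipocyte RNA in Agt and Dpyd was not tested.

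The remaining 5 genes came from unrelated functions. Ampd3, an AMP deaminase, was at 189.7, 31.4, 33.4, 71.2 and 44.9 CPM in EWAT, SWAT, MWAT, NWAT and HWAT. Vegfd, a growth factor of lymphatic vessels, was at 191, 80.6, 86.4, 83.1 and 44.9 CPM in the same order of depots. Cdk8, a kinase of the Mediator complex, was at 887, 411, 387, 281 and 256 CPM, and EWAT nuclei of other types held it at 401 (adipocyte) to 560.4 CPM (mesothelial). Tnfaip2, a gene induced by tumour necrosis factor, was at 124, 59.5, 34.8, 47.5 and 58.8 CPM, and Aff2, a nuclear protein of the AF4 family, at 431, 75.5, 124, 213 and 79.5 CPM. EWAT was 2.66 times NWAT (2 to 3.58) for Ampd3, 2.21 times MWAT (1.65 to 2.99) for Vegfd, 2.16 times SWAT (1.94 to 2.39) for Cdk8, 2.09 times SWAT (1.58 to 2.77) for Tnfaip2 and 2.03 times NWAT (1.71 to 2.42) for Aff2. The 2-fold call of Tnfaip2 was lost under 6 alternatives (lowest ratio 1.68), that of Aff2 under 3 (1.77) and that of Vegfd after thinning (1.96).

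Only 3 lower genes met the naming rule, which asked for 100 UMIs in the next lowest depot. Pde7b, a phosphodiesterase that degrades cAMP, had 13 UMIs in EWAT, or 13.5, 134, 272, 166 and 273 CPM in EWAT, SWAT, MWAT, NWAT and HWAT. EWAT was 0.101 times SWAT (0.0528 to 0.176). The Pde7b ratio to the lowest other depot was 0.0424 with a minimum of 8 stromal UMIs, 0.0299 after subtraction of free RNA and 0.121 with 0 Dpp4-type UMIs allowed. Thrsp, a lipogenic gene of adipocytes, was at 99.5, 376, 399.7, 429.6 and 785 CPM, and EWAT was 0.265 times SWAT (0.211 to 0.329). The Thrsp ratio to the lowest other depot was 0.141 after subtraction of free RNA, 0.330 with 0 Dpp4-type UMIs allowed and 0.358 after thinning. EWAT adipocyte nuclei held 629.6 CPM of Thrsp, and the 4 other libraries' adipocyte nuclei 1291 to 5375 CPM, so Thrsp was lower in EWAT adipocyte nuclei too. Fndc1, a matrix protein with fibronectin domains, was at 52.9, 147, 336, 156 and 470.1 CPM, and EWAT was 0.361 times SWAT (0.261 to 0.49). Within EWAT the Dpp4 type held 457 CPM of Fndc1, above the members of the same library.

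**Figure D3:**
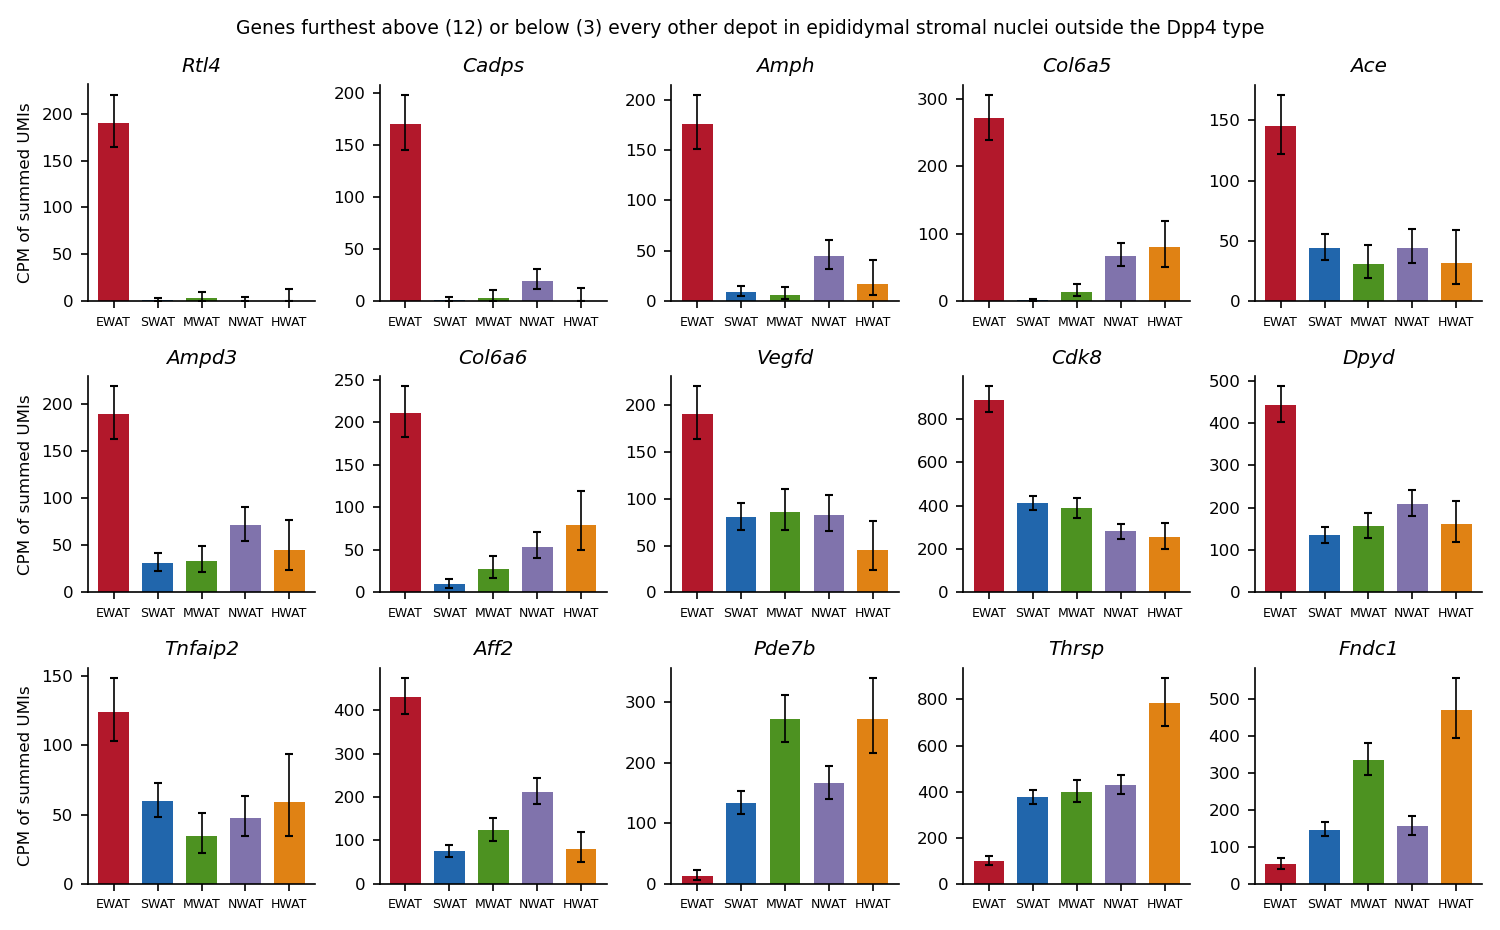
CPM of summed UMIs in stromal nuclei outside the Dpp4 type, by depot (1 pooled library each), for the 12 named genes above and the 3 below every other depot in EWAT, chosen with a minimum of 100 UMIs. Bars start at 0 and error bars are exact 95% Poisson intervals. Rtl4 is at 2.79 CPM or less outside EWAT, and Cadps reaches 19.4 CPM in NWAT. Cdk8 and Aff2 are 2.16 and 2.03 times the next depot.

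Gene lists were described by the log2 CPM in EWAT minus the mean log2 CPM of the 4 other depots. Over all 7383 genes the median difference was 0.07, and 3.24% were at 1 or more and 2.28% at -1 or less. A gene at 0 in a depot has no firm value on this scale, so list medians are also given with 0 counts set at the limit of 3 counts where that changes them. Tested means that a gene passed the minimum of 100 UMIs over the groups, and a gene high in only 1 depot can pass through that depot.

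Genes of vesicles and excitability had the highest list median. Of 35 genes 17 were tested, with a median of 1.02 (0.84 with 0 counts at the limit), 9 at 1 or more and 2 at -1 or less. These 9 include Cadps, Amph and Chrm3, which were chosen for their pattern. The calcium channel gene Cacna1c was at 214, 49.3, 59.9, 140.3 and 111 CPM in EWAT, SWAT, MWAT, NWAT and HWAT. Cadps2, the relative of Cadps, was at 78.8, 42.2, 16.7, 75.5 and 38.0 CPM and thus level with NWAT. The potassium channel gene Kcnt2 was at 321, 99.8, 304, 126 and 162 CPM, level with MWAT. The values of Grm7 and Kcnn3, with 2.32 and 1.44, came from depots at 0, since both genes were far higher in MWAT (239.6 and 574 CPM) than in EWAT (18.7 and 9.33 CPM). Kcnn3 is also a gut interstitial marker, a list that was highest in MWAT members. Piezo2, a mechanically gated channel, was at 7.26, 11.5, 269, 14.0 and 128 CPM, low in EWAT, SWAT and NWAT. After thinning, 62.0% of EWAT members had at least 3 UMIs over this list, beside 25.5% in SWAT, 69.1% in MWAT, 28.2% in NWAT and 34.1% in HWAT. Cadps, Amph and Chrm3 count in these shares and in the median too, so both follow in part from their choice. No share or median without them is given.

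Among collagens, the highest differences were those of Col6a5, Col6a6, Col4a6 and Col4a5. Of 31 collagens other than Col6a3, 21 were tested, with a median of 0.47, 5 at 1 or more and 0 at -1 or less. The basement membrane chains Col4a6 and Col4a5 were at 129, 5.76, 106, 23.7 and 76.0 CPM and at 219.7, 56.3, 110.0, 54.0 and 104 CPM. Their main relatives Col4a1 and Col4a2 differed by 0.78 and 0.87. The fibrillar genes Col1a1, Col1a2 and Col3a1 were near the mean of the other depots, at -0.32, -0.06 and 0.01. Summed over the list, EWAT held 10386 CPM, below SWAT (13556) and NWAT (15559) and above MWAT (6772) and HWAT (5175). The list median was 0.20 without MWAT. Col4a5 and Col4a6 were also at 435 and 309 CPM in EWAT mesothelial nuclei.

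Among 52 other matrix genes 46 were tested, with a median of 0.32, 8 at 1 or more and 3 at -1 or less. Cilp, a cartilage intermediate layer protein, was at 59.1, 1.28, 55.7, 5.4 and 6.91 CPM, and Matn2, a matrilin, at 109, 28.8, 78.0, 10.8 and 48.4 CPM. EWAT and MWAT were close for Cilp, and SWAT, NWAT and HWAT were low. Adamts5, which cleaves aggrecan and versican, was at 1061 CPM in EWAT (997 to 1128), 599.6 in SWAT, 309 in MWAT, 637 in NWAT and 135 in HWAT. Mmp3, a matrix metalloproteinase, had 7 UMIs in EWAT and was at 7.26, 369, 30.6, 132 and 38.0 CPM. Thbs2, an anti-angiogenic thrombospondin, was at 17.6, 99.2, 187, 80.9 and 69.1 CPM. Mmp3 and Thbs2 were both at least 2-fold below every other depot, while the value of Tnc rested on MWAT (244 CPM).

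No common direction was seen for genes of committed preadipocytes. Of 16 genes 15 were tested, with a median of 0.33, 2 at 1 or more and 0 at -1 or less. The median was -0.07 without MWAT and -0.16 without HWAT, so its sign depends on those libraries. It was also 0.03 after subtraction of free RNA and 0.16 with a minimum of 8 stromal UMIs. Pparg, the master regulator of adipocyte formation, was at 248 CPM in EWAT (217 to 281), 434 in SWAT, 106 in MWAT, 463 in NWAT and 41.5 in HWAT: SWAT and NWAT were above EWAT, and MWAT and HWAT below. A Pparg UMI was found in 30.1% of EWAT members and in 20.9% of macrophage and 52.8% of endothelial nuclei. Adam12, a metalloproteinase of early adipogenesis, was at 723, 883, 143, 617 and 131 CPM, and Pdgfrb, the second PDGF receptor, at 451, 323, 160.2, 376 and 169 CPM. Fabp4, an adipocyte lipid carrier, gave a UMI in 99.6% of members and 99.8% of macrophage nuclei and is read as background here.

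The CD142-type list had no gene at 1 or more. Of 12 genes 10 were tested, with a median of 0.22, with 1, Meox2, at -1 or less. F3, which encodes CD142, was at 205, 155, 267, 255 and 89.9 CPM. Gdf10, a BMP-like ligand, was at 179, 90.2, 262, 47.5 and 72.6 CPM with MWAT highest, and Fmo2 was at 155, 82.5, 401, 44.3 and 211 CPM with MWAT and HWAT above EWAT. Of the adipogenic regulators, 24 of 30 were tested, with a median of 0.20, 2 at 1 or more and 0 at -1 or less. These 2 were Cebpd at 276, 143, 263, 45.3 and 41.5 CPM and Cebpb at 89.1, 122, 79.4, 5.4 and 24.2 CPM, early factors of adipocyte formation. For Cebpd EWAT and MWAT were level, and for Cebpb SWAT was highest.

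Of 19 genes of steroid handling, Sult1e1 among them, 11 were tested. Their median was 0.18, with Sult1e1 and Hsd11b1 at 1 or more and 0 genes at -1 or less. Hsd11b1, which regenerates active glucocorticoid, was at 226 CPM in EWAT (197 to 258), 116 in SWAT, 44.6 in MWAT, 247 in NWAT and 100.2 in HWAT, close to NWAT. Cyp1b1, an oestrogen hydroxylase, was at 265, 126, 62.7, 236 and 173 CPM and also close to NWAT. The oestrogen receptor gene Esr1 was at 187, 619, 61.3, 508 and 58.8 CPM, so SWAT and NWAT stood above EWAT.

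Other hormone receptors were tested for 16 of 26 genes, with a median of 0.22, 4 at 1 or more and 1 at -1 or less. Npr3, the clearance receptor of natriuretic peptides, was at 64.3, 25.0, 15.3, 27.0 and 13.8 CPM, and EWAT was 2.38 times NWAT (1.48 to 3.96). Tshr, the thyrotropin receptor, was at 44.6, 26.2, 8.36, 17.3 and 3.46 CPM, and the beta-3 adrenergic receptor Adrb3 at 152, 132, 75.2, 85.3 and 17.3 CPM. EWAT adipocyte nuclei held far more of all 3 genes, at 716, 1056 and 1895 CPM, and the part of free adipocyte RNA was not tested. Retinoid genes were tested for 11 of 20, with a median of 0.27, 1 at 1 or more and 1 at -1 or less. Aldh1a3, which makes retinoic acid, was at 118 CPM in EWAT (97.5 to 142), 4.48 in SWAT, 79.4 in MWAT, 16.2 in NWAT and 10.4 in HWAT. Rarb, a retinoic acid receptor that is also its target gene, was at 11.4, 13.4, 59.9, 21.6 and 58.8 CPM and thus low in EWAT and SWAT.

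Among secreted Wnt regulators, several genes were shared by EWAT and MWAT. Of 40 Wnt genes 14 were tested, with a median of 0.25, 5 at 1 or more and 1 at -1 or less. Rspo3, an R-spondin that strengthens Wnt signals, was at 114 CPM in EWAT (93.7 to 137), 4.48 in SWAT, 110.0 in MWAT, 7.55 in NWAT and 69.1 in HWAT. Sfrp1, a secreted Wnt antagonist, was at 104, 5.76, 94.7, 9.71 and 27.7 CPM, and the ligand gene Wnt5b at 43.5, 4.48, 50.1, 9.71 and 24.2 CPM. For all 3 genes EWAT and MWAT were level and SWAT and NWAT lowest. Dkk2, another Wnt antagonist, was at 19.7, 49.3, 26.5, 292 and 17.3 CPM, with NWAT far above the rest. The list median was -0.13 with a minimum of 8 stromal UMIs -0.10 with 0 Dpp4-type UMIs allowed and -0.07 with a minimum of 20 counts, so its sign depends on those settings.

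BMP and TGF-beta genes were tested for 25 of 42, with a median of 0.24, 4 at 1 or more and 2 at -1 or less. Bmper, an extracellular BMP regulator, was at 1063 CPM in EWAT (999 to 1131), 1144 in SWAT, 90.5 in MWAT, 1231 in NWAT and 124 in HWAT. SWAT and NWAT were close to EWAT, and MWAT and HWAT low. Bmp6 was at 54.9, 12.8, 27.9, 8.63 and 3.46 CPM, and EWAT endothelial nuclei held 850.0 CPM of it. Tgfbi, a TGF-beta-induced matrix protein, was at 19.7, 41.0, 75.2, 63.7 and 107 CPM, lower than in every other depot by at least 2-fold. FGF genes were tested for 6 of 16, with a median of 0.12 and 0 beyond 1 in either direction. Fgf10, known as an inducer of preadipocyte growth, was at 218, 748, 41.8, 300.0 and 183 CPM with SWAT highest.

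Secreted growth factors were tested for 20 of 35, with a median of -0.08, 3 at 1 or more and 2 at -1 or less. Vegfc, the other lymphatic growth factor beside Vegfd, was at 266 CPM in EWAT (235 to 301), 56.3 in SWAT, 135 in MWAT, 96.1 in NWAT and 96.8 in HWAT, and EWAT was 1.97 times MWAT (1.56 to 2.52). Igfbp7, an insulin-like growth factor binding protein, was at 1964, 1467, 1532, 314 and 363 CPM, and EWAT endothelial and mesothelial nuclei held 1744 and 1756 CPM. Igfbp5, of the same family, was at 48.7, 353, 52.9, 41.0 and 346 CPM, high in SWAT and HWAT. Axon guidance genes were tested for 21 of 39, with a median of 0.10, 2 at 1 or more and 2 at -1 or less. Slit2, a repulsive guidance ligand, was at 459, 86.4, 691, 101 and 190.1 CPM, with MWAT above EWAT.

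Complement genes were tested for 13 of 20, with a median of 0.05, 2 at 1 or more and 0 at -1 or less. C7, a part of the membrane attack complex, was at 950.5 CPM in EWAT (890.0 to 1014), 308 in SWAT, 908 in MWAT, 119.8 in NWAT and 411 in HWAT, level with MWAT. Chemokine and cytokine genes were tested for 15 of 27, with a median of 0.12, 2 at 1 or more and 1 at -1 or less. Ccl2, which draws monocytes, was at 87.1, 39.7, 9.75, 9.71 and 51.9 CPM. Cxcl13, which draws B cells, had 1 UMI in EWAT, or 1.04, 125, 117, 406 and 3398 CPM. EWAT thus had less Cxcl13 than any other depot, and HWAT, where lymphoid markers were also highest, had the most.

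**Figure D4:**
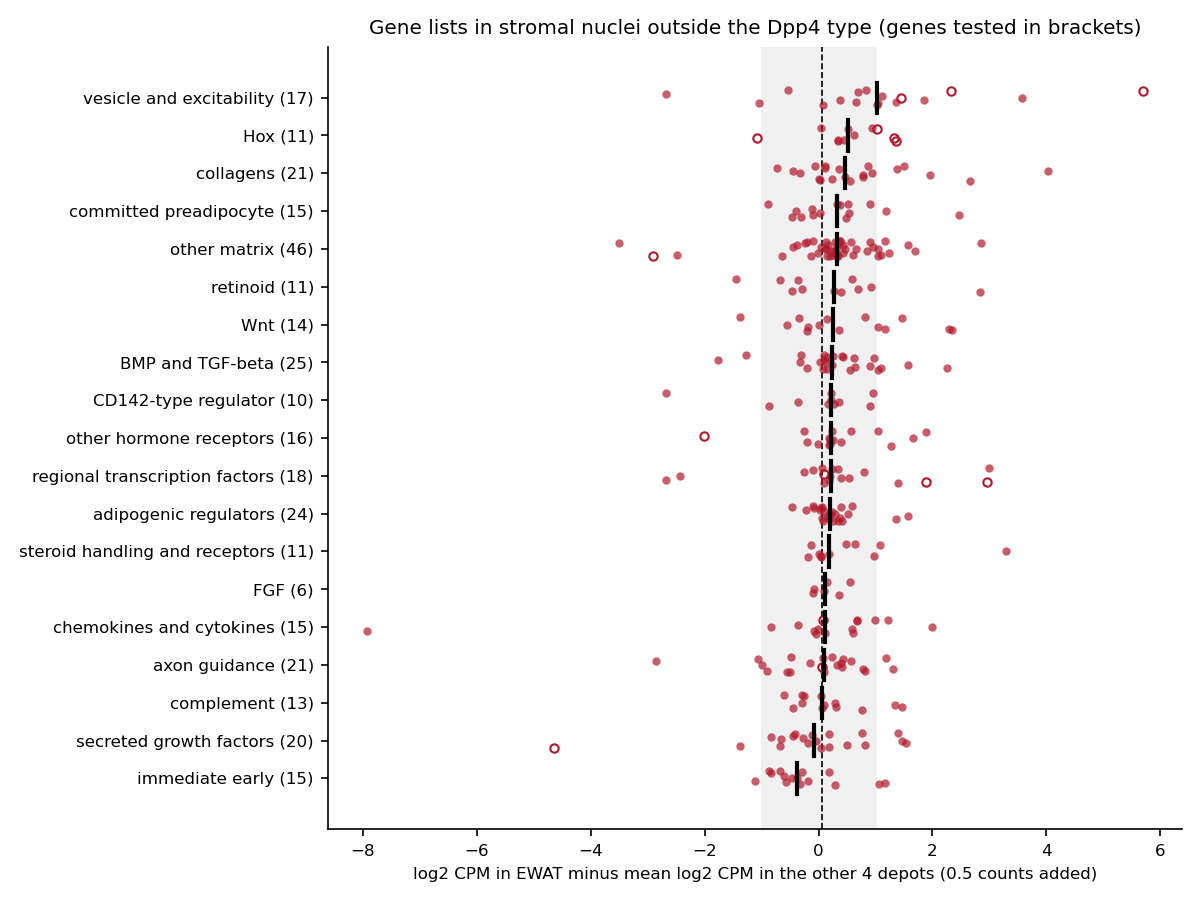
Log2 CPM in EWAT minus the mean log2 CPM of the other 4 depots for each tested gene (points) of 19 gene lists, with the list median as a black bar. The dashed line is the median of all genes tested (0.07), the grey band spans -1 to 1, and open points are genes at 0 counts in at least 1 depot, whose position depends on the added 0.5 counts. The vesicle and excitability list, which holds the chosen markers Amph, Cadps and Chrm3, has the highest median (1.02).

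Of 40 regional transcription factors 18 were tested, with a median of 0.22, 4 at 1 or more and 2 at -1 or less. Tcf21, a factor of visceral mesenchyme, was at 65.3 CPM in EWAT (50.2 to 83.5), 0.64 in SWAT, 149 in MWAT, 3.24 in NWAT and 6.91 in HWAT. Wt1, known from mesothelium and visceral fat progenitors, was at 109.9, 0, 149, 52.9 and 315 CPM. Wt1 had 0 UMIs in SWAT, which allows up to 1.92 CPM, and EWAT mesothelial nuclei held 535 CPM. Nr2f1, an orphan nuclear receptor, was at 54.9, 17.3, 0, 23.7 and 6.91 CPM with EWAT 2.31 times NWAT (1.38 to 3.99). Tbx15, known from subcutaneous fat, was at 6.22, 383, 5.57, 60.4 and 10.4 CPM, and Meox2, a homeobox gene, at 5.18, 44.8, 33.4, 28.1 and 38.0 CPM. EWAT, MWAT and HWAT were low for Tbx15, and for Meox2 EWAT was at least 2-fold below every other depot.

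Hox genes carry positional identity along the body. Of 39 genes 11 were tested, with a median of 0.51 (0.44 with 0 counts at the limit), 3 at 1 or more (0 at that limit) and 1 at -1 or less. Those 3 were Hoxc6, Hoxc8 and Hoxc9, all at 0 in HWAT. Hoxc8 was at 36.3, 62.7, 4.18, 80.9 and 0 CPM in EWAT, SWAT, MWAT, NWAT and HWAT, so EWAT lay below SWAT and NWAT and above MWAT. Hoxa9 had 4 UMIs in EWAT and was at 4.15, 85.1, 0, 91.7 and 0 CPM, below SWAT and NWAT, with 0 UMIs in MWAT and HWAT.

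Within EWAT, the members were set beside the 469 Dpp4-type nuclei, which met every other condition but had 2 or more UMIs of the 6 Dpp4-type genes. The rule made this split, so the values describe it and carry no test. Of 7129 genes outside the rule with at least 50 UMIs, 140 (1.96%) were at least 2-fold higher in the members and 276 (3.87%) at least 2-fold lower, each with a counting interval clear of 1. The lower count was 144 after thinning. Dpp4-type nuclei also carried more mesothelial RNA, with 754 against 142 CPM over the 8 markers, and all 7 tested mesothelial markers were at least 2-fold lower in the members. EWAT mesothelial nuclei themselves held the splitting genes Dpp4, Sema3c and Anxa3 at 1146, 803 and 510 CPM. Their Cd55 was at 16.7 CPM, with Pi16 and Sema3e at 0. The part of mesothelial RNA in the lower genes was not tested. The 8 pericyte and smooth muscle markers went the other way, with 204 CPM in the members against 88.2 CPM in the Dpp4 type. Their part in the higher genes was not tested.

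Genes among the 10 furthest above the Dpp4 type in EWAT are given here. Hpca, a neuronal calcium sensor, was at 52.9 against 7.12 CPM, or 7.42 times (3.5 to 18.1). Pde11a, a cyclic nucleotide phosphodiesterase, was at 401 against 86.4 CPM, and the chemokine gene Cxcl14 at 66.3 against 14.2 CPM. Sox9, a regulator of cartilage and progenitor cells, was at 68.4 against 15.1 CPM. Others were Vwa1 (2.26 on the log2 scale), Abcc9 (1.99), Trpm3 (1.97), Apod (1.91) and Chst15 (1.91). Abcc9 is also a pericyte marker, and its difference ranged from 0.52 with a minimum of 8 stromal UMIs to 3.61 after thinning. For the other genes named here it stayed between 1.24 (Apod, thinned) and 3.43 (Cxcl14, with 3 UMIs required of the Dpp4 type).

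Several listed genes of preadipocytes and of steroid handling were higher in the members. The list counts below stand beside 1.96% of all 7129 tested genes at least 2-fold higher and 3.87% lower. Of 14 tested preadipocyte genes 4 were at least 2-fold higher and 0 lower, with a median difference of 0.63 against -0.01 for all genes. The 4 were Adam12 (723 against 202 CPM), Pdgfrb (451 against 152 CPM), Agt (77.7 against 28.5 CPM) and Pparg (248 against 119 CPM). Steroid genes had 3 of 11 higher and 0 lower, namely Hsd11b1 (226 against 73.9 CPM), Cyp1b1 (265 against 102 CPM) and Sult1e1 (1217 against 601 CPM). Sult1e1 was among the markers chosen for their pattern. Of 19 axon guidance genes 0 were at least 2-fold higher and 6 lower, with a median difference of -0.21. Growth factor, chemokine and cytokine, and FGF genes lay on both sides. Of 17 growth factor genes 3 were higher, among them Igf1 (367 against 128 CPM) and Hgf (50.8 against 13.4 CPM), and 2 lower, Pdgfc (19.7 against 49.9 CPM) and Gas6 (81.9 against 188 CPM). Of 14 chemokine and cytokine genes 2 were higher, Cxcl12 (171 against 51.6 CPM) and Cxcl14, and 3 lower, Il18 (21.8 against 71.2 CPM), Il33 (15.5 against 65.9 CPM) and Tnfrsf11b (9.33 against 65.0 CPM). Of 6 FGF genes Fgf10 (218 against 80.1 CPM) and Fgf7 (162 against 76.6 CPM) were higher and Fgf1 (38.4 against 279 CPM) lower. Of 20 collagen genes Col15a1 (417 against 120.2 CPM) and Col4a1 (1198 against 571 CPM) were higher and Col14a1 (155 against 678 CPM) lower. Of 45 other matrix genes 3 were higher (Sparcl1, Thbs1 and Spon1) and 3 lower (Fn1, Efemp1 and Thbs2), with Fn1 at 325 against 1077 CPM.

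The genes furthest below were Adamts16, Ano3, Diaph3, Dact2, Sorcs1, Efhd1, Cmah and Nxph1. The first 3 had 1 UMI each in the members, against 96.2, 60.5 and 44.5 CPM in the Dpp4 type. Dact2, a Wnt pathway modulator, was at 6.22 against 138 CPM, and Cmah, which makes a sialic acid, at 13.5 against 204 CPM. Nxph1, a secreted neurexin ligand, was at 11.4 against 173 CPM, and EWAT mesothelial nuclei held 803 CPM of it. Across the alternatives run, the 8 differences stayed between -2.50 (Sorcs1, thinned) and -8.25 (Nxph1, free RNA subtracted) on the log2 scale. Some genes that were higher in EWAT than in the other depots differed less from the Dpp4 type. Cadps was at 170.0 against 117 CPM and Col6a6 at 211 against 149 CPM, and both differed by less than 2-fold. Ampd3 (189.7 against 225 CPM), Vegfd (191 against 200 CPM) and Tnfaip2 (124 against 125 CPM) were not higher in the members. Rtl4 (191 against 73.0 CPM), Amph (176 against 64.1 CPM) and Dpyd (443 against 177 CPM) were more than 2-fold higher. Of the genes lower than in every depot, Pde7b (13.5 against 19.6 CPM) and Thrsp (99.5 against 106 CPM) were also low in the Dpp4 type.

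The same split was then made in each other library, with its own nuclei. Of the 140 genes higher in EWAT, 102 were tested in SWAT and 78 (76.5%) were higher there too, beside 54.8% of all genes tested there. The shares were 67 of 73 (91.8%) in MWAT, 102 of 111 (91.9%) in NWAT and 34 of 40 (85.0%) in HWAT, beside 47.3%, 49.6% and 46.9% of all genes. Of the 276 lower genes, the same side was seen for 111 of 141 (78.7%) in SWAT, 159 of 183 (86.9%) in MWAT, 189 of 197 (95.9%) in NWAT and 123 of 129 (95.3%) in HWAT. Of all genes tested there, 45.2%, 52.7%, 50.4% and 53.1% were on that side in SWAT, MWAT, NWAT and HWAT. All libraries were split on the same 6 genes, so genes carried by the same nuclei follow by construction. Pde11a differed by 2.21 on the log2 scale in EWAT, 1.77 in SWAT and 2.13 in NWAT, and had 1 UMI in each of the MWAT groups. Sox9 differed by 2.15 in EWAT, -0.49 in SWAT and -0.02 in NWAT, and the intervals of all 4 other libraries spanned no difference.

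**Figure D5:**
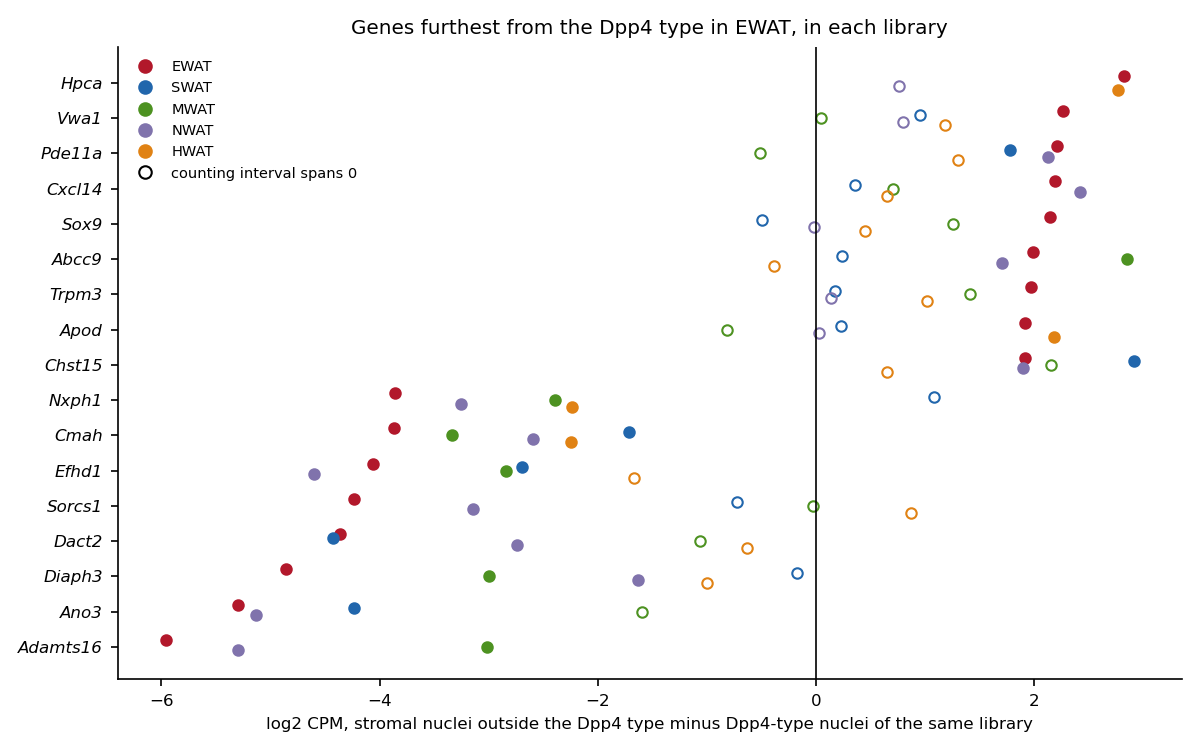
Log2 CPM in stromal nuclei outside the Dpp4 type minus Dpp4-type nuclei of the same library, for 9 of the 10 genes furthest above and the 8 furthest below in EWAT. Colours are depots, open points have a counting interval that spans 0, and genes at 0 in either group of a library are not drawn there. Cmah is below 0 with an interval clear of 0 in all 5 libraries, while Sox9 is clear of 0 in EWAT alone.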

How the data were processed

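Nuclei of 5 pooled fat depots were profiled with the 10x 3′ V3 chemistry. The deposited values are raw UMI counts per gene and barcode, and per the file headers Cell Ranger 6.0.1 wrote them. The submitters' processing notes name mm10 and Seurat, and the annotation release is not given in the sources used here. Each matrix held barcodes with at least 500 UMIs.

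Counts were summed over the nuclei of a group. Differences used log2 CPM with 0.5 counts added, for genes with at least 100 UMIs over the 5 depots or 50 against the Dpp4 type. A gene was called at 2-fold with a 95% interval clear of 1 (exact Poisson for levels, conditional binomial for ratios, Clopper-Pearson for shares). With 1 library a depot no p-value was computed. Named genes were the 12 highest and 8 lowest against every depot (at least 100 UMIs), the 10 highest and 8 lowest against the Dpp4 type, the rule's genes and up to 4 a list. Members and lists were chosen with earlier results of these data known. Lists held 636 genes, and 3 were left out for missing or duplicated symbols. Doublets were kept out only by the exclusion genes, and a doublet score was an alternative, beside other rule limits, depths, scalings, count minimums, free RNA subtraction and leaving out a depot. The score flagged 18.2% of EWAT members and 14.8% of all EWAT nuclei. In the other depots it flagged 7.89% to 10.2% of members and 9.83% to 15.8% of all nuclei. Positions came from GENCODE (GRCm38) and matched 683 of 683 genes. The scripts (Python 3.11.15, numpy 2.4.6, scipy 1.17.1, edgeR 4.0.16 for scaling factors only) were tested on simulated data. A few genes that the naming rule or a list would give are not reported here.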

Additional observations from a re-analysis of the deposited data

How the results depend on the processing

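No gene named for its rank against the other depots or the Dpp4 type changed direction under the alternatives run, with no thinned ratio for Rtl4. Genes named only from a list were not followed singly under the alternatives. The EWAT to MWAT share ratio, whose interval spans 1, moved across 1. List medians near 0 changed sign. The committed preadipocyte and Wnt medians did so as given above, secreted growth factors with 0 Dpp4-type UMIs (0.14) and without MWAT (0.05), chemokines without MWAT (-0.18), axon guidance without HWAT (-0.03) and retinoid with 20 counts (-0.24). The complement median was -0.03 with 0 UMIs of other types, -0.05 after thinning and -0.12 as a mean over nuclei. No paired analysis was possible because each depot is 1 pooled library. Of the alternatives, 9 of 40 moved a share, 15 of 82 a gene count, 23 of 352 a list median, 7 of 209 a named gene against the depots and 12 of 234 a named gene against the Dpp4 type. The EWAT share was 2.15% with 8 stromal UMIs, 2.05% with 0 UMIs of other types and 1.69% with 0 Dpp4-type UMIs. Its ratio to SWAT was 0.355 with 0 Dpp4-type UMIs. With 8 stromal UMIs the ratios to MWAT and HWAT were 1.19 and 4.41. With the rule applied after thinning, chosen after seeing the data, the ratios to SWAT, MWAT and HWAT were 0.554, 1.17 and 3.52. After thinning to 1000 UMIs, 14 genes were higher and 15 lower than in each depot, 149 above and 87 below the mean, and 144 lower than the Dpp4 type. With a minimum of 20 counts, 42 were higher than in each depot, 601 above and 711 below the mean, and 262 higher and 486 lower than the Dpp4 type. Without MWAT, 43 were higher and 49 lower than in each depot. The lower count was 16 with 0 Dpp4-type UMIs, 21 after doublet scores and 49 after free RNA subtraction. HWAT has the fewest summed UMIs, and 0 counts there allow up to 10.4 CPM. The cause of these moves was not tested.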

Other observations

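Set beside all other EWAT nuclei, the genes that led these stromal nuclei were chosen after their values were seen. Some of them are given here, and of these Fgf7 was also named above against the Dpp4 type. Penk, the enkephalin precursor, was at 415 CPM against 15.7 CPM in the rest of the library, and Dpep1, a surface dipeptidase, at 466 against 20.1 CPM. Fgf7, a growth factor for epithelial cells, was at 162 against 4.36 CPM, and Gpm6b, a membrane proteolipid, at 331 against 9.14 CPM. Aox3, an aldehyde oxidase, was at 252 against 7.48 CPM, and Dchs2, a large cadherin, at 142 against 5.29 CPM. The rest of the library holds few stromal nuclei, the Dpp4 type among them, so these values mainly describe the stroma of the depot. The Dpp4 type held less of each than the members. It had 217 CPM of Penk, 301 of Dpep1, 76.6 of Fgf7, 167 of Gpm6b, 145 of Aox3 and 84.6 of Dchs2.

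Immediate early genes, which respond within minutes to handling and other stimuli, were tested for 15 of 24, with a median of -0.38 against 0.07 for all genes, 2 at 1 or more and 1 at -1 or less. Jund was at 127, 259.8, 152, 9.71 and 24.2 CPM in EWAT, SWAT, MWAT, NWAT and HWAT, and Ier3 at 14.5, 16.6, 40.4, 11.9 and 128 CPM. Against the EWAT Dpp4 type, 0 of 14 were at least 2-fold higher in the members and 2, Ier3 and Nr4a1, lower. The handling of each depot's tissue was not measured, and its part in these values was not tested.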
